A study of Mus musculus with 12 samples.

Results

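The kinesins of mouse NIH3T3 fibroblasts, the motor proteins that walk along microtubules, were followed across cell density and across cells carrying regulators of the Hippo pathway. They were chosen by name, as every gene whose only symbol in the array's annotation was Kif followed by a number, with or without a letter from a to c, or was Kifc1, Kifc2 or Kifc3. This gave 40 of the 18193 genes measured. All 40 were tested, and no filter on level was applied. By their known roles 13 act mainly in mitosis, 16 carry cargo, 6 belong to cilia or to hedgehog signalling, and 5 fit none of these groups. Cenpe, a kinesin of the kinetochore, has no Kif symbol and is given below with the spindle partners.

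A kinesin turns ATP into steps along a microtubule through a conserved motor domain, and its tail chooses the load. Mitotic kinesins slide spindle microtubules apart, push or align chromosomes, shorten microtubule ends, or build the midzone at which the daughter cells part. Most of them are made late in the cell cycle and destroyed after division, whereas the cargo motors carry vesicles, endosomes and organelles also in cells that do not divide. The heterotrimeric motor of Kif3a, Kif3b and Kifap3 carries the trains that build the primary cilium, which fibroblasts grow when they leave the cycle.

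Total RNA was hybridised to 12 Affymetrix arrays, 2 for each of 6 groups of NIH3T3 cells, an established line, infected with virus. Control vector cells were taken at 30% confluency (low density) and at complete confluency. Cells with Tead2-EnR, a fusion of the DNA-binding factor Tead2 with the repression domain of Engrailed, were taken at 30% of the confluency those cells reach. Cells with Tead2-VP16, which carries the viral VP16 activation domain, were taken at complete confluency and also, like cells with Yap, the coactivator that binds Tead factors, at a density slightly above the confluency of normal cells and described as proliferating, which is called high density here. All groups share the parent line and the infection, and each vector is set against the same control arrays, so comparisons with a common control share its 2 arrays. Nothing in the labels says that paired arrays held RNA of different dishes, so p-values measure only the spread between these arrays, which may be technical.

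Levels are log2 of the deposited intensities, and a change is a difference of log2 means, the first group named minus the second. A gene was called where its adjusted p was below 0.05 in limma, with Benjamini-Hochberg adjustment over the 18193 genes. Where arrays of different groups are said not to overlap, the share of all genes separated in that way was not computed. Of the 40 kinesins 26 had more than 1 probe set on the array, and the one with the highest mean stood for the gene. The mean of 22 of them lay above 6.87, the mean of the median gene, which serves here only to mark dim probe sets. Those 22 were 10 of the 13 mitotic kinesins, 10 of the 16 cargo motors, 1 of the 6 of cilia and hedgehog, and 1 of the other 5. A probe set below that level may hold little but background, since no detection calls were used.

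The arrays read all 6 fibroblast markers above that level, with Col1a1 between 13.13 and 14.17 and Vim between 14.02 and 14.27. None of the 3 endothelial, 2 measured adipocyte or 4 multiciliated cell markers was above it, and 1 of 4 macrophage, 1 of 5 epithelial and 2 of 6 neuronal markers were (Csf1r, Epcam, Tubb3 and Rbfox3). The summed neuronal markers lay between 9.29 and 9.34 in low-density control and between 8.42 and 8.44 in confluent control, and the epithelial ones between 8.26 and 8.38 and between 8.96 and 8.98. In Tead2-EnR cells the neuronal sum was 8.55 to 8.60, in Yap cells 8.51 to 8.64, and in Tead2-VP16 cells 8.59 to 8.77 at high density and 8.24 to 8.30 at complete confluency. Intensities were summed before log2, so the brightest markers weigh most. Over all arrays Tubb3 ranged from 6.26 to 8.55, Rbfox3 from 6.85 to 7.16 and Syp from 5.64 to 6.46. Among epithelial markers Epcam ranged from 6.98 to 8.40 and Cdh1 from 5.34 to 6.54. The probe sets of the vector genes followed the labels in 1 of the 3 vectors. Tead2 was called higher in Tead2-EnR cells than in low-density control, at 9.83 against 9.62 (0.21, limma adjusted p = 0.032), and it was also called higher in confluent than in low-density control (0.26). In Tead2-VP16 cells Tead2 was at 9.32 at high density, called lower than the 9.88 of confluent control, and at 9.76 at complete confluency, not called. In Yap cells Yap1 was at 9.66 against 9.96 in confluent control and Tead2 at 9.05 against 9.88, both called lower. Whether these probe sets lie in the part that the vectors carry was not tested, and the groups are named as labelled. Poly-A spike-in controls ranged from 7.65 ± 0.08 (SD, n = 2) in low-density control to 8.06 ± 0.19 in confluent Tead2-VP16 cells, with confluent control at 7.98 ± 0.10. For the transferrin receptor, the signal at the 3′ end less that at the 5′ end, a measure of RNA quality and labelling, was 0.98 ± 0.05 in low-density control and 1.30 ± 0.19 in confluent control. Their part in the results below was not tested.

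Promoters of mitotic kinesins carry short elements known from genes expressed in late cell cycle. The cell cycle genes homology region, CHR, is TTTGAA or TTTAAA and is bound by the MuvB complexes, which repress such genes in resting cells and activate them before mitosis. CCAAT is bound by NF-Y, TTCCCGC and TTGGCGC are forms of the E2F site, and GGAATG is the Tead site. These letters were searched on both strands of RefSeq windows (GRCm38.p6) from 250 bases before to 50 bases after each start, 300 bases in all. TTTAAA reads the same on both strands, and it was counted once per window. Windows were at hand for 32 of the 40 kinesins, among them 12 of the 13 mitotic ones. The 3 mitotic kinesins and the 1 cargo motor with the largest change between low-density and confluent control among those with a window are shown, because they changed most, in opposite directions. Capitals mark CHR and CCAAT letters. A match on the strand not printed shows as its reverse complement, which is TTCAAA for TTTGAA. For CCAAT it is ATTGG.
Kif11 (chr19:37376132-37376431, plus strand): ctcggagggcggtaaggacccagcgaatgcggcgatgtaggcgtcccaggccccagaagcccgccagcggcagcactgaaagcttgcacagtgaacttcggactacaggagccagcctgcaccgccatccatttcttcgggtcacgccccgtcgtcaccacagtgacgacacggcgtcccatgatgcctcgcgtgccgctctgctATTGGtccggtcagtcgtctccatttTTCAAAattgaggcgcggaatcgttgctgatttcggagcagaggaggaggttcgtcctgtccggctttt
Kif2c (chr4:117178723-117179022, minus strand): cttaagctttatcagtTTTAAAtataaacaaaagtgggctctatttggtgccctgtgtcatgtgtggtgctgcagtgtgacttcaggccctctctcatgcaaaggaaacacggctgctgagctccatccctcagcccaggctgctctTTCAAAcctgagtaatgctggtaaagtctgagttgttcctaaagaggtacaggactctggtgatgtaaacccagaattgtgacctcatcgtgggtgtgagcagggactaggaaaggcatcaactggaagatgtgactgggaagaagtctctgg
Kif18b (chr11:102925075-102925374, minus strand): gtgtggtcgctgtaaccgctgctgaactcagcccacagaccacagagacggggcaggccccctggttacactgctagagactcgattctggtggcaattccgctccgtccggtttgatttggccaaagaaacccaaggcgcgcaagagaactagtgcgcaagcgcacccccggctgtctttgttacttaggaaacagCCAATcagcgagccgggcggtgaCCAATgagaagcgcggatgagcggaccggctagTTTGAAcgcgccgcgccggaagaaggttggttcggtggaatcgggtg
Kif16b (chr2:142901415-142901714, minus strand): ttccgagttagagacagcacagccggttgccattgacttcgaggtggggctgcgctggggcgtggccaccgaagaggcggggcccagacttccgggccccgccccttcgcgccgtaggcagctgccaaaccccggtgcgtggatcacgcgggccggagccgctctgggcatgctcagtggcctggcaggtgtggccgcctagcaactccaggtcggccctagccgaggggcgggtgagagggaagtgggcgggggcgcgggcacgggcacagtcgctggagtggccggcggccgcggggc

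Counted from the start, with negative positions before it, the Kif11 window holds a CCAAT centred at -42.5 bases and a CHR centred at -16. Kif18b holds a pair of CCAAT boxes followed by a CHR centred at 6. The Kif2c window has CHR letters centred at -231 and -100 and no CCAAT, and the Kif16b window has none of the motifs. Over the mitotic kinesins CHR letters were in 10 of 12 windows (83.3%), against 27.6% of all 32851 windows of this length. CCAAT was in 8 of 12 (66.7%, against 37.4%), and both were in 7 of 12 (58.3%, against 10.7%). The cargo motors held CHR letters in 1 of 12 windows (8.33%) and CCAAT in 4 of 12 (33.3%). Those 12 windows came from 10 of the 16 cargo motors, and Kif13b and Kifc2 had no window. Kif1b gave 2 overlapping windows that both held CCAAT. An E2F site was in 2 of 12 mitotic windows (16.7%, against 6.81%), those of Kif15 and Kif18a. The Tead letters were in 0 of 12 mitotic windows and in 1 of 12 of the cargo motors (Kif3b), against 14.7% of all. In 9 of the 12 mitotic windows (75%) a CHR lay within 50 bases of the start, against 8.54% of all windows and 1 of 12 for the cargo motors, a distance chosen after the positions were seen. The mitotic windows without CHR letters were those of Kif18a, called lower in confluent than in low-density control (-1.68), and Kif2b, not called (-0.15). Kif18a had no CCAAT either. Kif15, not called (0.12), held CHR letters, one centred at -16. Whether motifs and changes are related was not tested. These shares describe letters in these windows, and say nothing on whether a factor binds there.

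**Figure D1:**
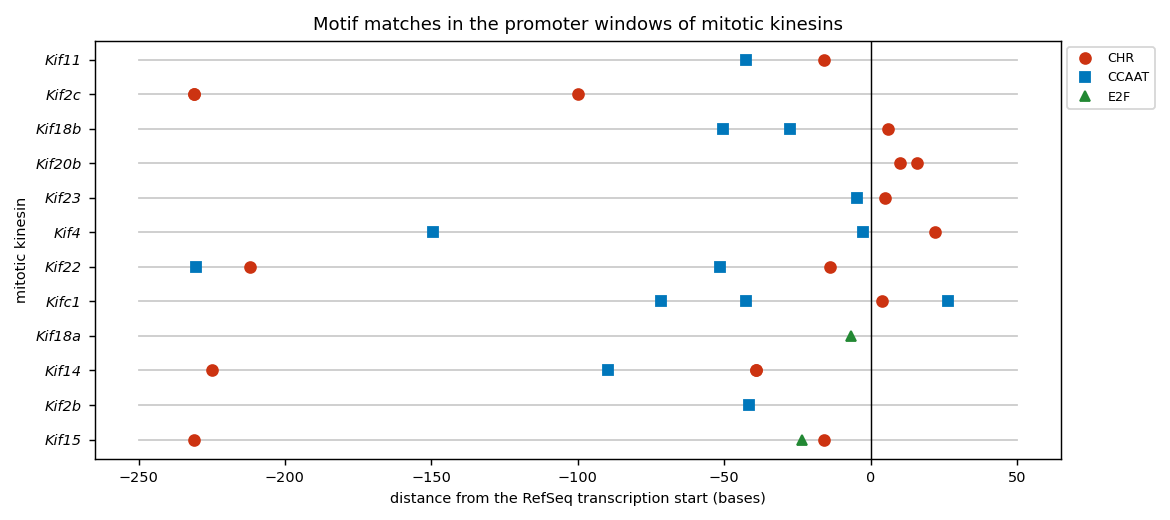
Position of motif matches in the RefSeq promoter windows of 12 mitotic kinesins. The horizontal axis is the distance in bases from the transcription start (vertical line), each row is 1 gene, and points are the centres of CHR, CCAAT or E2F letters on either strand. CHR letters lie within 50 bases of the start in 9 of the 12 windows, and 7 of the 12 hold both CHR and CCAAT letters.

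The first comparison asked how kinesin levels depended on density in cells that carried the control vector. In confluent cells 10 mitotic kinesins were lower than at low density by 3.21-fold to 6.99-fold, while 3 cargo motors were higher by 2.66-fold to 2.92-fold and others by less. Of the 13 mitotic kinesins 11 fell and 0 rose, and of the 16 cargo motors 9 rose and 1 fell. Over the 40 kinesins 11 were called higher and 14 lower, where 26.1% of all genes were higher and 22.8% lower. The median change was -2.29 for the mitotic kinesins and 0.27 for the cargo motors, against -0.01 over all genes. In bulk RNA, fewer cells that express a gene and less of its RNA per cell cannot be told apart.

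Kif20a, which carries the chromosomal passenger complex to the midzone, read 10.17 and 10.19 on the low-density control arrays and 7.41 and 7.34 on the confluent ones. It was 6.99-fold lower (-2.81, 95% interval -2.97 to -2.64). Its partner in building the midzone, Kif23, the motor of centralspindlin, read 9.28 and 9.33 and then 6.84 and 6.86 (-2.45, -2.58 to -2.33). The arrays of the 2 densities lay far apart for both genes. Kif20b, a motor of cytokinesis, went from 9.58 and 9.57 to 7.03 and 6.99 (-2.56). Kif4, which binds chromosomes and also limits the length of midzone microtubules, went from 9.03 and 9.09 to 6.73 and 6.80 (-2.29). Kif14, which acts with citron kinase in the last step of division, was dim and changed less, from 4.19 and 4.39 to 3.56 and 3.53 (-0.75, limma adjusted p = 0.00035).

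Kif11, the tetrameric motor that pushes the spindle poles apart and the target of the drug monastrol, read 9.74 and 9.85 at low density and 7.10 and 7.05 at confluency. It was 6.59-fold lower (-2.72, 95% interval -2.86 to -2.57). Kifc1, a minus-end motor that gathers spindle poles, read 8.24 and 8.37 and then 6.57 and 6.38 (-1.83). Its only probe set may also read the near-identical gene Kifc5b, so that value is uncertain. Kif15, which can stand in for Kif11 in pushing the poles apart, was at 5.85 and 5.56 against 5.95 and 5.70, with overlapping arrays (0.12, 95% interval -0.17 to 0.40). The Kif15 probe set was dim, as was that of Kif2b, a depolymerase at the kinetochore, with 3.05 and 2.69 against 2.63 and 2.81 (-0.15). The means were 5.77 for Kif15 and 2.79 for Kif2b, and such low signals may limit what could be seen. Why these genes read flat was not tested. Neither Kif15 nor Kif2b was called in any of the 9 comparisons.

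Motors of chromosomes and of microtubule ends fell as well, as shown by Kif22, Kif2c, Kif18b and Kif18a. Kif22, which pushes chromosome arms towards the equator, read 11.03 and 10.69 at low density and 8.86 and 8.78 at confluency (-2.04). Kif2c, which takes microtubules apart at faulty kinetochore attachments, read 10.16 and 9.99 and then 7.34 and 7.41 and was 6.5-fold lower (-2.70). Kif18b, which shortens astral microtubules, went from 9.24 and 9.33 to 6.55 and 6.89 (-2.57). Kif18a, which damps the movements of chromosomes during alignment, went from 8.99 and 8.70 to 7.08 and 7.24 (-1.68). For each of these 4 genes every low-density array was above every confluent one. The adjusted p of the 10 larger falls lay between 3.6e-10 and 1.7e-06 by limma with Benjamini-Hochberg adjustment.

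Among the mitotic kinesins 6 had more than 1 probe set, and in a fit of every probe set 15 of their 19 were called lower, 0 higher and 4 not. All 3 probe sets of Kif11 and all 3 of Kif22 were called lower, with changes from -2.72 to -2.31 and from -2.69 to -2.04. Kif20b and Kif2c each had 3 of 4 called, Kif23 had 2 of 3 and Kif18a had 1 of 2. Leaving out any 1 of the 4 arrays left 11 or 12 mitotic kinesins called lower.

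**Figure D2:**
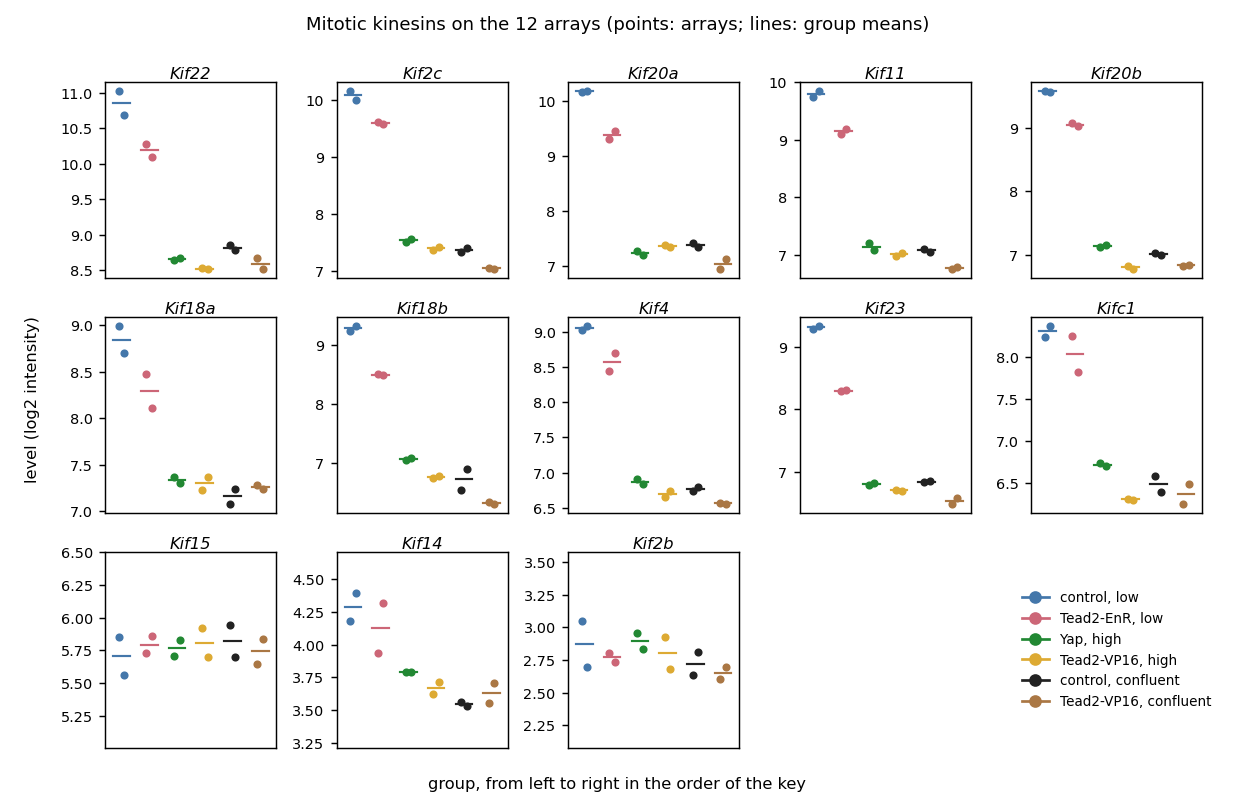
Levels of the 13 mitotic kinesins in log2 intensity on the vertical axis, with its own scale in each panel. Points are the 2 arrays of a group, short lines are group means, and groups run from left to right in the order of the key. For 11 genes, all but Kif15 and Kif2b, every array of low-density control and Tead2-EnR cells stands above every array of the other 4 groups. The share of all genes separated in this way was not computed.

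Partners of these motors in the spindle and midzone changed in the same comparison. Of 18 on the list 17 were lower and 1 higher, with a median of -2.54, where 22.8% of all genes were lower and 26.1% higher. Aurka, the kinase of spindle poles, was at -3.20, Aurkb, the kinase of the chromosomal passenger complex that Kif20a carries, at -2.91, and Birc5, another subunit of that complex, at -3.17. Numa1, which anchors dynein at the poles and is also a nuclear matrix protein of non-dividing cells, was the one that rose (0.38). Cenpe was at -2.19. Kif2a, a depolymerase of spindle poles that also prunes microtubules in resting cells, was the only one called of the 5 kinesins outside the other groups. It read 9.42 and 9.37 at low density and 8.81 and 8.83 at confluency (-0.57, 95% interval -0.70 to -0.44). Kif12, Kif26a, Kif26b and Kif28 were dim, with means between 3.44 and 4.99, and none of them was called in any of the 9 comparisons.

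Cargo motors changed less, and most of those that were called rose with confluency. Kif13b, which carries membrane scaffold proteins, read 6.77 and 6.85 on the low-density arrays and 8.36 and 8.35 on the confluent ones, and was 2.92-fold higher (1.54, 95% interval 1.39 to 1.69). Kif16b, the motor of early endosomes, read about 6.0 on both low-density arrays and then 7.45 and 7.51 (1.48, 1.33 to 1.63). Kifc2, a minus-end motor best known from neurons, read 6.06 and 6.08 and then 7.52 and 7.43 (1.41, 1.25 to 1.57). The arrays of the 2 densities did not overlap for any of the 3. Over all arrays the means of Kif16b and Kifc2 lay slightly below that of the median gene. Among genes above that level 7 cargo motors were called higher in place of 9, since Kif16b and Kifc2 were then not tested. All 3 probe sets of Kif16b and both of Kifc2 were called higher, and 2 of the 4 of Kif13b were.

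The kinesin-2 subunits rose together but by less. Kif3a, the common subunit, read 8.41 and 8.48 at low density and 8.96 and 8.95 at confluency (0.51, limma adjusted p = 0.00011), and all 4 of its probe sets were called higher. Kif3b, its usual partner, rose by 0.56, again on all 4 probe sets, and Kif3c, an alternative partner, by 0.70. Of the 2 probe sets of Kif3c 1 was called higher, and the other was at 0.10. Kifap3, which links the motor to its load, went from 9.17 and 9.18 to 10.56 and 10.57 (1.39). Each of these 4 genes had confluent arrays above both low-density arrays.

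Smaller rises were called in Kif1b (0.46), a carrier of mitochondria and vesicles, Kif13a (0.31), a carrier of endosomes, and Kif1c (0.22), a vesicle motor. For Kif1b and Kif13a other probe sets were called the opposite way, so these 2 directions are uncertain. With the probe sets of a gene averaged, 6 cargo motors were called higher in place of 9, since Kif1b (0.13), Kif13a (0.07) and Kif1c (0.02) no longer were. Kif1c also lost its call without confluent replicate 1 (limma adjusted p = 0.073). Kifc3, a minus-end motor found at cell junctions and the Golgi, was the cargo motor called lower (-0.50, limma adjusted p = 0.012). It read 8.68 and 8.89 at low density and 8.39 and 8.17 at confluency. With low-density replicate 1 left out 3 cargo motors were called lower, and with low-density replicate 2 or confluent replicate 2 left out 0 were. Kif5b, the heavy chain of conventional kinesin, read 10.48 and 10.22 and then 10.48 and 10.46 and was not called (0.12, 95% interval -0.18 to 0.42). Of its 6 probe sets 3 were called lower, the lowest at -0.66, so its direction depends on the probe set. Kif5a, Kif5c, Kif1a, Kif21a and Kif21b were not called, with changes between -0.31 and 0.09 on the probe sets used.

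**Figure D3:**
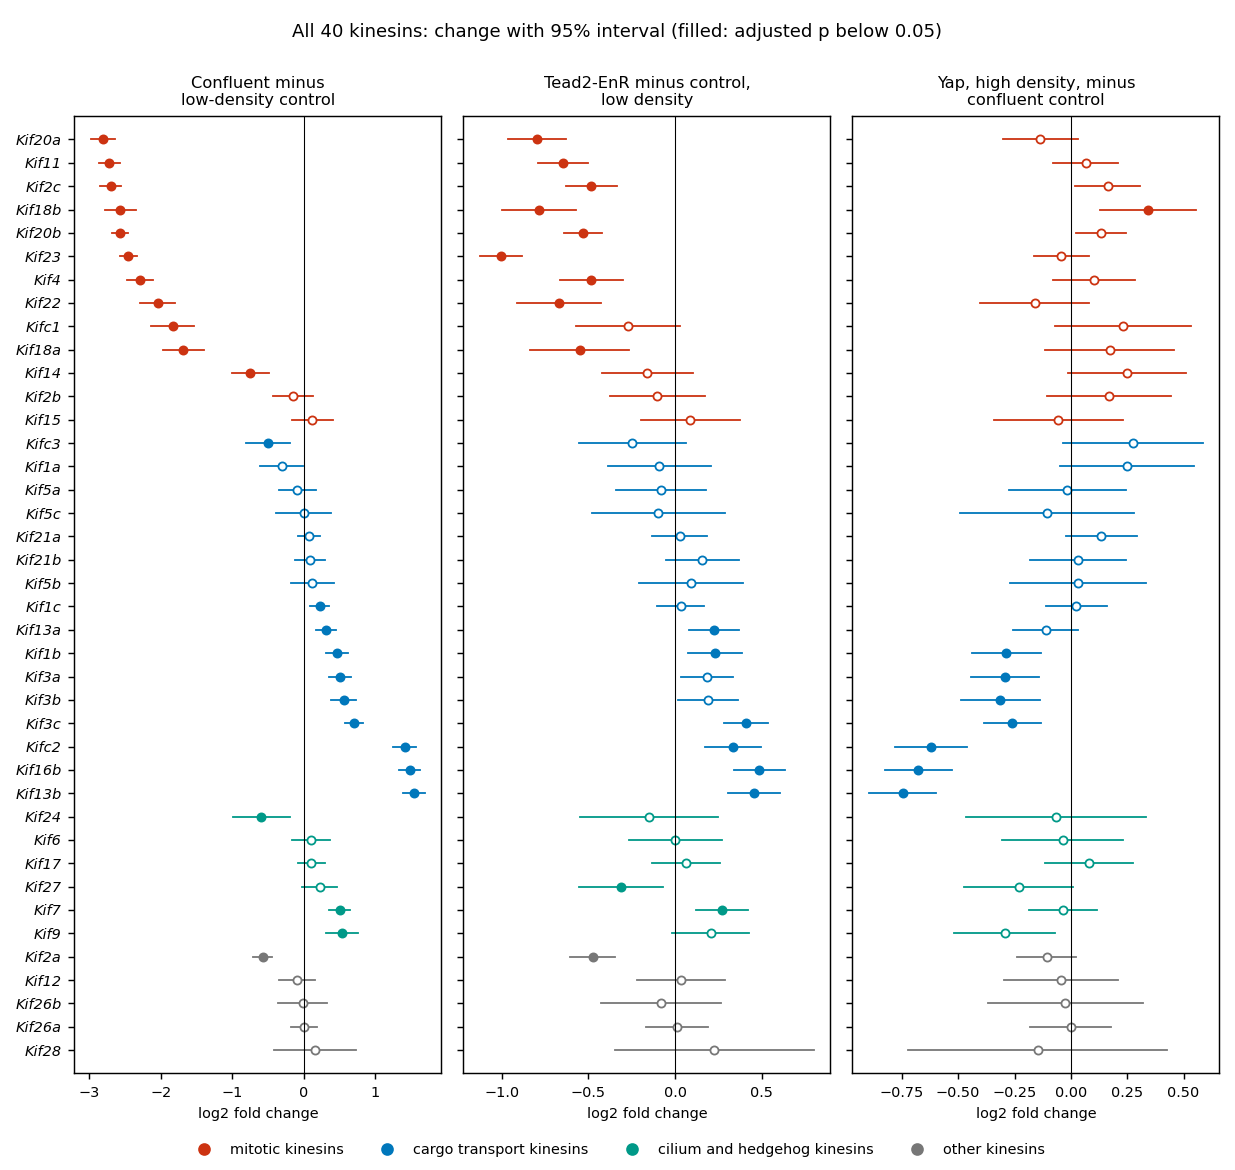
Change of each of the 40 kinesins in 3 comparisons, on a log2 axis of its own in each panel, with 95% intervals from limma and filled points where the adjusted p was below 0.05. Colours are the groups by role. All mitotic kinesins but Kif15 lie to the left of 0 in the first and second panels and around 0 in the third, whereas the cargo motors highest in the first panel are the lowest in the third, a comparison that shares the confluent control arrays.

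Genes that work with the cargo motors gave a mixed list. Of 15 light chains and adaptors measured 9 rose and 2 fell with a median of 0.29. The smallest adjusted p belonged to Kifap3, the kinesin-binding protein Kifbp (0.66) and the light chain Klc4 (0.78). Of 19 genes of dynein and dynactin, the motor that travels the other way, 10 rose and 4 fell with a median of 0.43. Among them the lowest adjusted p was that of Dync1li2, a light intermediate chain (0.84), followed by the dynactin subunits Dctn1 (0.79) and Dctn2 (0.70). Both lists held genes called in either direction, where 26.1% of all genes were higher and 22.8% lower.

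Genes of the cilium were a further group in which more genes rose. Of 17 genes of intraflagellar transport 13 rose and 1 fell, with a median of 0.65, where 26.1% of all genes rose and 22.8% fell. Ift122, a part of the retrograde train, read 5.70 and 5.59 at low density and 7.47 and 7.55 at confluency (1.87), Dync2li1, a subunit of the cilium's dynein, was at 1.59 and Ift81, which binds tubulin, at 1.23. Among the kinesins of cilia and hedgehog, Kif7, a regulator of Gli factors at the cilium tip, read 7.15 and 7.28 and then 7.70 and 7.74 (0.50). Kif9, a dim gene of motile cilia, was at 0.54. Kif24, which keeps centrioles from growing a cilium, was the one called lower (-0.60, limma adjusted p = 0.018), at 6.31 and 6.78 against 5.91 and 6.0, and its probe sets disagreed. That call was lost without low-density replicate 2 or either confluent array (limma adjusted p = 0.14, 0.086 and 0.05). Kif6, Kif17 and Kif27, none of them above the median gene, were not called.

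The second comparison asked how Tead2-EnR cells differed from control cells at low density. Mitotic kinesins were lower than in control cells here too. The low density of Tead2-EnR cells was set relative to the confluency those cells reach, so it may differ from that of control cells. Vector and density may thus both differ in this comparison and cannot be told apart. Of the 13 mitotic kinesins 9 fell and 0 rose, with a median of -0.53 against -0.01 over all genes, where confluency gave -2.29. Of the 16 cargo motors 6 rose and 0 fell (median 0.17). Over the 40 kinesins 7 were higher and 11 lower, where 20.3% of all genes were higher and 18.1% lower. Low-density control arrays are shared with the first comparison, so the values of both are set side by side and no relation between them was computed.

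Kif23 had the largest change, with 8.29 and 8.32 on the Tead2-EnR arrays against 9.28 and 9.33 in control, a 2.01-fold fall (-1.0, 95% interval -1.13 to -0.88). Kif20a read 9.32 and 9.45 against 10.17 and 10.19 (-0.80, with -2.81 at confluency). Kif18b read 8.50 and 8.49 against 9.24 and 9.33 (-0.79, with -2.57). All Tead2-EnR arrays lay below both control arrays for these 3 genes, and far above the confluent arrays. Kif22 (-0.67), Kif11 (-0.65), Kif18a (-0.55), Kif20b (-0.53), Kif2c and Kif4 (both -0.48) fell as well. Kifc1 was at -0.27 with overlapping arrays and was not called (95% interval -0.57 to 0.03), and Kif14, Kif15 and Kif2b were not called either. The limma adjusted p of Kif18a was 0.052 without control replicate 1 and 0.051 without Tead2-EnR replicate 2.

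Kif2a read 8.89 and 8.95 against 9.42 and 9.37 (-0.48, with -0.57 at confluency). Among cargo motors Kif16b rose by 0.49, Kif13b by 0.46, Kif3c by 0.41, Kifc2 by 0.33, Kif1b by 0.23 and Kif13a by 0.22. Kif3a and Kif3b were at 0.18 and 0.19 and were not called. When the probe sets of a gene were averaged, Kif13b was at 0.11, Kif13a at 0.13 and Kif1b at 0.00, and none was called. The call of Kif1b was also lost without control replicate 2 (limma adjusted p = 0.13), without Tead2-EnR replicate 1 (0.068) and without Tead2-EnR replicate 2 (0.095), and that of Kif13a without the same arrays (0.096, 0.072 and 0.074).

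In this comparison 20.3% of all genes were higher and 18.1% lower. Spindle partners were lower in 16 of 18 cases and higher in 0, with a median of -0.66. Aurka was at -0.82, Birc5 at -0.81 and Tpx2, an activator of Aurka, at -0.78. Intraflagellar transport genes were higher in 12 of 17 cases and lower in 0, with a median of 0.41, among them Ift122 (1.03), Dync2li1 (1.16) and Ift27 (0.80). Kif7 rose by 0.27, a call lost without control replicate 1 (limma adjusted p = 0.07) and without Tead2-EnR replicate 2 (0.069). Kif27 was called lower (-0.31) from a dim level, 5.01 and 5.13 against 5.40 and 5.36, and lost its call without any 1 of the 4 arrays (adjusted p between 0.066 and 0.2). Dynein and dynactin genes were higher in 11 and lower in 4 of 19 cases, among them Dync1li2 (0.39), Dctn2 (0.49) and Dctn1 (0.44). Of the 15 light chains and adaptors 5 rose and 3 fell. The adaptor Fez2 had the smallest adjusted p of that list and fell by 0.83.

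The next question was where kinesin levels stood in the cells with Yap and with Tead2-VP16 at high density, which the labels describe as proliferating. Mitotic kinesins were close to their level in confluent control and far below that in low-density control. Against low-density control 11 of 13 mitotic kinesins were lower in Yap cells (median -2.20) and 11 of 13 in Tead2-VP16 cells (median -2.36), and 0 were higher in either. Of all genes 20.2% and 19.5% were lower. Against confluent control 1 mitotic kinesin was higher and 0 lower in Yap cells (median 0.13), and 0 were higher and 1 lower in Tead2-VP16 cells (median -0.02). Of all genes 11.7% were higher and 14.5% lower in Yap cells, and 13.2% and 13.7% in Tead2-VP16 cells. Vector and density both differ in these comparisons and cannot be told apart.

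Kif20a read 7.28 and 7.20 in Yap cells and 7.38 and 7.34 in Tead2-VP16 cells, against 7.41 and 7.34 in confluent control and 10.17 and 10.19 in low-density control. Its changes from low density were -2.94 and -2.82, and from confluency -0.14 (95% interval -0.30 to 0.03) and -0.02 (-0.19 to 0.15). Kif11 read 7.20 and 7.09 in Yap cells and 6.98 and 7.03 in Tead2-VP16 cells, against 7.10 and 7.05 in confluent control, so Yap arrays overlapped the confluent ones. Its changes from confluency were 0.07 (-0.08 to 0.21) and -0.07 (-0.22 to 0.07). Kif23 was at -0.04 (-0.16 to 0.08) and -0.14 (-0.26 to -0.02), and Kif2c at 0.16 (0.02 to 0.31) and 0.02 (-0.12 to 0.17), none of them called. These intervals hold the changes to small sizes but do not show that the levels are equal.

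Kif18b was the mitotic kinesin called higher in Yap cells than in confluent control, at 7.04 and 7.08 against 6.55 and 6.89 (0.34, limma adjusted p = 0.025). That call was lost without Yap replicate 1 (limma adjusted p = 0.079), Yap replicate 2 (0.11) or control replicate 1 (0.13). Kif20b was the one called lower in Tead2-VP16 cells, at 6.83 and 6.78 against 7.03 and 6.99 (-0.21, limma adjusted p = 0.012). Kif20b was not called with averaged probe sets (-0.05), without Tead2-VP16 replicate 2 (limma adjusted p = 0.071) or without control replicate 1 (0.072). Neither gene's arrays overlapped those of confluent control.

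Set against low-density control, 10 kinesins were higher and 13 lower in Yap cells, where 22.2% of all genes were higher and 20.2% lower. In Tead2-VP16 cells 8 were higher and 13 lower, where 23.4% and 19.5% of all genes were. Of the 16 cargo motors 9 were higher in Yap cells and 7 in Tead2-VP16 cells, and 0 were lower in either. The count in Yap cells was 5 without control replicate 1 or Yap replicate 2 and 6 without Yap replicate 1. With arrays centred on their medians it was also 5, with 6 of all kinesins higher in place of 10, and Kif3a (0.17), Kif3b (0.20), Kif13a (0.16) and Kif21a (0.17) were then not called. With averaged probe sets Kif1c (0.21) and Kif13a (0.05) lost their calls in Yap cells and Kif13a (0.11) in Tead2-VP16 cells, and Kif1b in Tead2-VP16 cells, called higher on the probe set used, was at -0.035, so its direction is uncertain. Kif16b was higher by 0.81 and 0.85, Kif13b by 0.80 and 0.69, Kifc2 by 0.79 and 0.55 and Kif3c by 0.44 and 0.40. Kif3b (0.24 and 0.38) was called in both, and Kif3a (0.21 and 0.14) in Yap cells. Kif2a was at -0.68 and -0.63, Kif24 at -0.66 and -0.86 and Kif7 at 0.47 and 0.41, all called. The call of Kif24 in Yap cells was lost without control replicate 2 (limma adjusted p = 0.1) or Yap replicate 1 (0.098). These comparisons share the low-density control arrays with each other.

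Against confluent control 1 kinesin was higher and 7 lower in Yap cells, where 11.7% of all genes were higher and 14.5% lower. In Tead2-VP16 cells 0 were higher and 8 lower, where 13.2% and 13.7% were. All 7 lower in Yap cells were cargo motors, as were 6 of the 8 lower in Tead2-VP16 cells. Kif13b read 7.65 and 7.56 in Yap cells and 7.53 and 7.47 in Tead2-VP16 cells, between low-density control (6.77 and 6.85) and confluent control (8.36 and 8.35). Its changes from confluent control were -0.75 and -0.86. Kif16b read 6.80 and 6.81 in Yap cells and 6.80 and 6.89 in Tead2-VP16 cells, again between the controls (-0.68 and -0.63). Kifc2 read 6.87 and 6.84 in Yap cells and 6.57 and 6.66 in Tead2-VP16 cells (-0.62 and -0.86). For these 3 genes neither vector's arrays overlapped either control, and the share of all genes separated in this way was not computed.

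The changes from confluent control were -0.29 and -0.37 for Kif3a, -0.26 and -0.30 for Kif3c, and -0.29 and -0.23 for Kif1b, all called. Kif3b was called in Yap cells (-0.31) and not in Tead2-VP16 cells (-0.18). Kifap3 was at -0.69 and -0.72, with 9.85 and 9.91 in Yap cells, 9.89 and 9.80 in Tead2-VP16 cells and 10.56 and 10.57 in confluent control. Kif9 was called lower in Tead2-VP16 cells (-0.39). Of 17 intraflagellar transport genes 15 were lower and 1 higher in Yap cells (median -0.35), and 15 were lower and 1 higher in Tead2-VP16 cells (median -0.40). Of all genes 14.5% were lower and 11.7% higher in Yap cells, and 13.7% and 13.2% in Tead2-VP16 cells. Ift122 was at -0.82 and -0.83 and Wdr35, of the same retrograde complex, at -0.73 and -0.69, while Ift20, which also works at the Golgi, was the one higher, by 0.48 and 0.37.

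Leaving out Yap replicate 2 or control replicate 1 left 5 kinesins called against confluent control in Yap cells in place of 8. The count in Tead2-VP16 cells also went from 8 to 5, without its own replicate 2. Calls were lost by Kif3b without Yap replicate 1 (limma adjusted p = 0.092) or control replicate 1 (0.091), by Kif3a without Yap replicate 2 (0.062) or control replicate 1 (0.051), and by Kif9 without either Tead2-VP16 array (0.059 and 0.082) or control replicate 1 (0.12). Kif1b in Yap cells lost its call without either Yap array (0.055 and 0.061) or control replicate 1 (0.063). In Tead2-VP16 cells Kif1b lost its call without replicate 2 of that group (0.22), without either control array (0.13 and 0.1) and with arrays centred on their medians (-0.20, limma adjusted p = 0.051). Kif3c lost its call in Yap cells without control replicate 2 (0.062). With averaged probe sets Kif1b in Yap cells (-0.09) and Kif3c in Yap (-0.08) and Tead2-VP16 cells (-0.13) were not called. In each of these cases the direction stayed as it was.

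**Figure D4:**
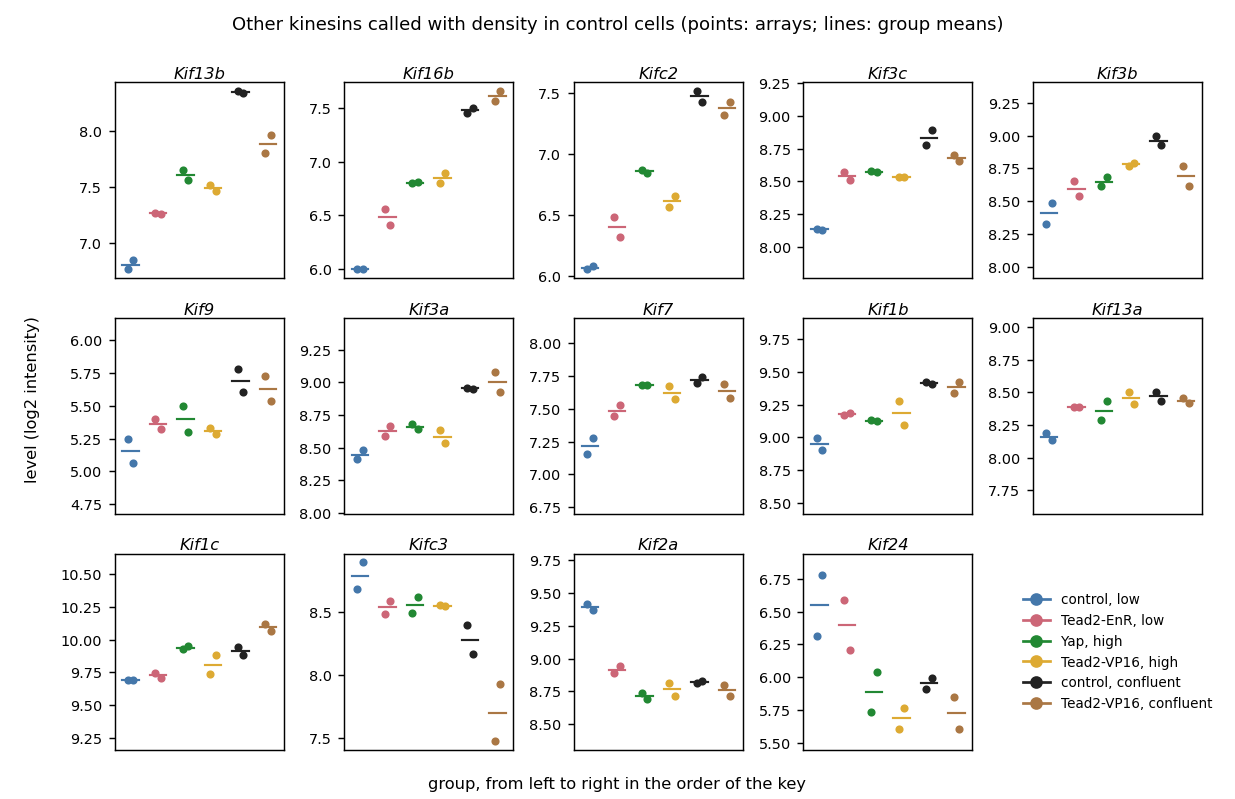
Levels, in log2 intensity on the vertical axis, of the 14 kinesins outside the mitotic group that were called between low-density and confluent control, with a scale of its own in each panel. Points are the 2 arrays of a group, short lines are group means, and groups run from left to right in the order of the key. Kif13b, Kif16b and Kifc2 have both high-density groups between the controls, while Kif2a lies between 8.69 and 8.95 on every array but those of low-density control.

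Other members of the transport and spindle lists stood as follows in these cells. Spindle partners were lower than in low-density control in 16 of 18 cases with each vector (medians -2.53 and -2.58). Against confluent control 5 were higher and 2 lower in Yap cells, and 2 were higher and 4 lower in Tead2-VP16 cells. Aurka was higher than in confluent control by 0.52 and 0.39, with 7.98 and 7.99 in Yap cells and 7.91 and 7.81 in Tead2-VP16 cells against 7.43 and 7.51. Ckap5, a microtubule polymerase, was at -0.48 and -0.36 and Numa1 at -0.36 and -0.33, all called. Dynein and dynactin genes were higher in 1 and lower in 5 of 19 cases in Yap cells, and higher in 2 and lower in 5 in Tead2-VP16 cells, with Dync1h1, the heavy chain, at -0.50 and -0.41. Light chains and adaptors were higher in 1 and lower in 4 of 15 cases with either vector, Kifbp among them (-0.37 and -0.39).

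**Figure D5:**
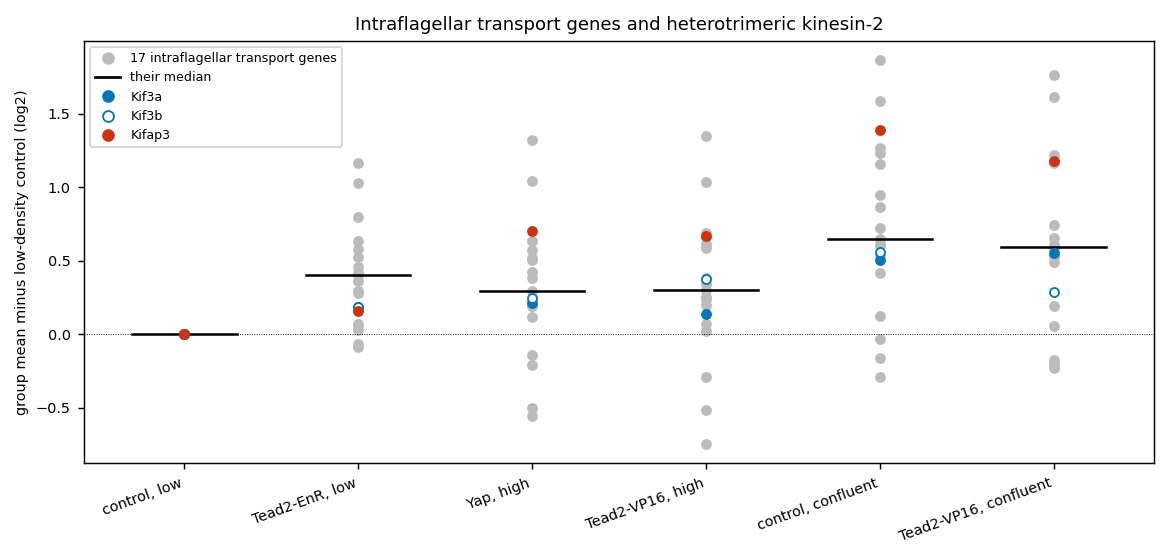
Group mean minus the mean of low-density control, in log2, for 17 intraflagellar transport genes (grey points) with their median (black lines), and for the kinesin-2 genes Kif3a, Kif3b and Kifap3 (coloured points). Groups are along the horizontal axis. The median is 0.65 in confluent control, 0.41 in Tead2-EnR cells, 0.29 in Yap cells and 0.30 in Tead2-VP16 cells at high density.

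Set directly against each other at high density, Yap and Tead2-VP16 cells differed in 1 kinesin, Kif20b, higher in Yap cells, where 0.934% of all genes were higher and 1.08% lower. It read 7.13 and 7.16 in Yap cells and 6.83 and 6.78 in Tead2-VP16 cells (0.34, 95% interval 0.23 to 0.45, limma adjusted p = 0.0093). The call was lost when any 1 of the 4 arrays was left out, with adjusted p between 0.058 and 0.09. Among the mitotic kinesins Kifc1 (0.41, 0.11 to 0.71) and Kif18b (0.29, 0.08 to 0.51) were further apart than the rest and were not called, and the median was 0.14. The 16 cargo motors lay between -0.13 and 0.24, with 0 called. Birc5 (0.31) and Aurkb (0.27) were the 2 spindle partners called. For Kif11 the interval ran from -0.01 to 0.28 and for Kif20a from -0.29 to 0.05, so differences within those bounds remain possible.

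The last comparisons concerned Tead2-VP16 cells at complete confluency. At high density these cells were already slightly above the confluency of normal cells. Vector and density may thus both differ from confluent control and cannot be told apart. Against control also labelled as completely confluent 0 kinesins were higher and 7 lower, where 5.06% of all genes were higher and 4.92% lower. The 5 mitotic ones were Kif18b (-0.40), Kif20a (-0.33), Kif2c (-0.33), Kif23 (-0.31) and Kif11 (-0.30), with a median of -0.20 over the 13. Kif2c read 7.06 and 7.04 against 7.34 and 7.41, and Kif23 read 6.50 and 6.59 against 6.84 and 6.86, without overlap. The cargo motors called were Kif13b, at 7.81 and 7.96 against 8.36 and 8.35 (-0.47), and Kifc3, at 7.48 and 7.93 against 8.39 and 8.17 (-0.58). Of the 18 spindle partners 8 were lower and 1 higher, with Nusap1, which bundles spindle microtubules, at -0.56, Birc5 at -0.48 and Incenp at -0.37. Among intraflagellar transport genes 2 were lower and 0 higher, and 0 of 19 dynein and dynactin genes were called.

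That count rests on few arrays. Without control replicate 1 or without Tead2-VP16 replicate 2 it was 4, and without control replicate 2 or without Tead2-VP16 replicate 1 it was 1, with between 0 and 3 mitotic kinesins among them. Without Tead2-VP16 replicate 1 the adjusted p was 0.13 for Kif20a, 0.1 for Kif18b, 0.06 for Kif2c, 0.054 for Kif23 and 0.15 for Kifc3. Without control replicate 2 it was 0.068, 0.11, 0.092, 0.05 and 0.057 for the same genes. Kif11 lost its call without any 1 of the 4 arrays (adjusted p between 0.062 and 0.1). With averaged probe sets Kif23 was at -0.17 and was not called (limma adjusted p = 0.13). The direction of every one of these changes was kept.

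Within Tead2-VP16 cells, complete confluency was set against high density, and fewer mitotic kinesins were called than between the controls. Over the 40 kinesins 6 were higher and 6 lower, where 12.1% of all genes were higher and 12.4% lower. Of the 13 mitotic kinesins 4 were lower, Kif18b (-0.45), Kif2c (-0.35), Kif20a (-0.32) and Kif11 (-0.23), and the median was -0.14. Without high-density replicate 1 or confluent replicate 1 only 2 were called. The change in Kif11 was lost as a call without any 1 of the 4 arrays (adjusted p between 0.072 and 0.12), and that in Kif20a without high-density replicate 1 (0.073) or confluent replicate 1 (0.089). Kif16b, at 7.56 and 7.66 against 6.80 and 6.89 (0.77), and Kifc2, at 7.32 and 7.43 against 6.57 and 6.66 (0.76), were higher at confluency. Kif3a (0.42), Kif13b (0.39), Kif9 (0.33) and Kif1c (0.29) were higher as well. With averaged probe sets Kif13b was at 0.08 (limma adjusted p = 0.51) and Kif1c at 0.21 (0.26), and neither was called. Kifc3 (-0.84) and Kif21a (-0.25) were lower at confluency.

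The call of Kif9 was lost without either high-density array (limma adjusted p = 0.11 and 0.14) or confluent replicate 1 (0.22), that of Kif1c without high-density replicate 1 (0.059), and that of Kif21a without any 1 of the 4 arrays (between 0.052 and 0.15). In this step 12.1% of all genes were higher and 12.4% lower. Intraflagellar transport genes were higher in 12 of 17 cases and lower in 1, with a median of 0.32. Those higher included Ift122 (0.72), Ift74 (0.57) and Ift80 (0.39). Kifap3 was at 0.51. Of the 18 spindle partners 7 were lower and 2 higher, with Aurka at -0.70, Birc5 at -0.47 and Incenp at -0.44. These comparisons share the confluent Tead2-VP16 arrays with the comparison before.

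Low-density control had the highest group mean and Tead2-EnR cells the next in 11 of the 13 mitotic kinesins, with Kif15 and Kif2b the exceptions. How many of all genes share that order was not computed. The median over the 13 was 9.24 and 9.33 on the low-density control arrays, 8.47 and 8.49 with Tead2-EnR, 7.04 and 7.08 with Yap, 6.84 and 6.89 in confluent control, 6.75 and 6.78 with Tead2-VP16 at high density and 6.57 and 6.59 in confluent Tead2-VP16 cells. The first and second places do not overlap with each other or with the rest. The 3 groups after them are neighbours that differed in at most 1 mitotic kinesin by test. The median of the cargo motors had no such order and lay between 8.06 and 8.52 on every array. Single cargo motors differed in this. In Kif13b, Kif16b and Kifc2 low-density control had the lowest group mean, Tead2-EnR cells the next and the confluent groups the highest. Kif13b went from 6.81 in low-density control and 7.27 with Tead2-EnR to 8.35 in confluent control. In Kifc3 low-density control had the highest group mean (8.78).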

How the data were processed

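Total RNA of NIH3T3 cells was labelled and hybridised to 12 Affymetrix arrays, per the labels' protocols. The authors deposited probe set intensities, summarised by RMA with no version per the submitters' processing notes. RMA gives log2 values normalised between arrays by quantiles, but the deposited intensities ran from 3.77 to 25980, so they were taken as linear and log2 was applied. Array medians lay between 51.9 and 53.7, and the 2 arrays per group limit the precision. Of 45101 probe sets 34945 had 1 symbol, 932 several, 9160 none and 64 were controls. The probe set with the highest mean stood for each gene.

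All 12 arrays entered one limma 3.58.1 fit (R 4.3.3, lmFit, contrasts.fit, eBayes, 6 residual and 3.45 prior degrees of freedom), with 1 mean per group, 9 comparisons, two-sided tests and Benjamini-Hochberg adjustment over 18193 genes. The fit was tested on simulated data. Figures used matplotlib 3.10.9 in Python 3.11.15. Entrez identifiers of all 40 kinesins matched a RefSeq gene table, with 0 symbols changed. A probe set shared by Kif27 and another gene was not used, and Kif19a was not analysed here.

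The members and the gene lists were chosen with earlier results of these data known. Any kinesin could be named. Per comparison up to 6 called ones in each direction, up to 3 uncalled mitotic ones and up to 3 called members of each other list were preferred, and Cenpe, Ift20 and, in the density step of control cells, Numa1 were added after their values were seen. Same-numbered arrays of different groups did not deviate together. Over 15 pairs of groups their deviations correlated with r between -0.061 and 0.101, so the numbers were not used as pairs. Alternatives were another choice of probe set, a level filter, every probe set tested, a variance trend with robust prior, blocking on replicate number, repeated quantile normalisation, median centring, only the arrays compared, and each array left out.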

Additional observations from a re-analysis of the deposited data

How the results depend on the processing

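Of 108 recomputed counts of called kinesins, 91 were within 1.5 times the reported count and 17 were not. Those 17 came from 4 comparisons. For Tead2-VP16 against control at complete confluency (7 called) the count was 12 among genes above the median level, 1 with only the arrays compared, and 1 to 4 with each array left out. With each array left out it was 5 to 7 for Yap and 5 to 7 for Tead2-VP16 at high density against confluent control (8 each). For Yap against Tead2-VP16 at high density (1 called, Kif20b) it was 3 among genes above the median level, 2 with a variance trend and robust prior, 0 with averaged probe sets, 0 with only the arrays compared and 0 with each array left out, for the 4 arrays. With each array left out the count ranged from 23 to 28 for confluent against low-density control, 15 to 18 for Tead2-EnR, 19 to 23 for Yap and 21 to 23 for Tead2-VP16 at high density against low-density control, and 8 to 11 for the step within Tead2-VP16 cells. With the replicate number as a block, which does not pair these samples, the counts were 25, 19, 7, 9, 9, 24, 21, 1 and 12 in place of 25, 18, 7, 8, 8, 23, 21, 1 and 12. Centring arrays on their medians moved the share of called genes that were higher from 50.69% to 68.26% for Tead2-VP16 against control at complete confluency and from 46.32% to 31.61% for Yap against Tead2-VP16.

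All 123 reported calls of single kinesins were recomputed 1452 times. Of these, 1312 stayed past the threshold, 139 kept their direction and fell short of it, and 1 reversed, Kif1b in Tead2-VP16 cells at high density against low-density control with averaged probe sets (-0.035). Of the 139, 91 had an array left out, 20 used only the arrays compared, 17 averaged probe sets, 6 tested every probe set and 5 centred arrays on their medians. In the density step of control cells 9 of 295 fell short, from 5 of the 25 called kinesins (Kif1b, Kif13a, Kif1c, Kif24 and Kifc3) and from 0 of the 11 mitotic ones. The cause of these losses was not tested. Probe sets below the median gene, such as those of Kif14, Kif15, Kif2b, Kif16b, Kifc2 and most kinesins of cilia, may limit what could be seen.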
